A study of Rattus norvegicus with 25 samples.

Results

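The microRNAs (miRNAs) described here are the rat miR-101 and miR-26 families, taken as all rows of the sperm miRNA count matrix whose names start with rno-miR-101a-, rno-miR-101b-, rno-miR-26a- or rno-miR-26b-. This gave 8 of the 562 miRNAs listed, namely both arms of 4 hairpins. The guide arms rno-miR-101a-3p, rno-miR-101b-3p, rno-miR-26a-5p and rno-miR-26b-5p passed the filter on low counts, together with 313 other miRNAs (317 in all), and the 4 passenger arms did not. The sperm came from male Sprague-Dawley rats with intravenous access to morphine (0.75 mg/kg/infusion) or saline in 3-h daily sessions over 60 days, and was taken from the cauda epididymis and purified by 2 rounds of swim-up. F0_SAL (saline, 7 libraries) and F0_MOR (morphine, 7 libraries) were collected when self-administration ended. F0_ABS-SAL (saline, 5 libraries) and F0_ABS-MOR (morphine, 6 libraries) were collected after a further 90 days of abstinence. Abstinent males were therefore also older at collection than nonabstinent males, and age, time since the last session and any difference in library preparation cannot be told apart in the timepoint comparisons.

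A miRNA guides an Argonaute protein to messenger RNAs that pair with its seed, the short stretch near its 5′ end, and the messenger RNA is then repressed or degraded. The miR-101 and miR-26 families are among the best known repressors of Ezh2, the catalytic subunit of Polycomb repressive complex 2, which places repressive methyl marks on histone H3. Sperm carry little cytoplasm and are largely silent in transcription, and their small RNA content is laid down in the testis and changed further during transit through the epididymis. Messenger RNA, EZH2 protein and histone marks were not measured in these libraries, so the values below are levels of the miRNAs alone.

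The mature guide sequences are shown because the 2 members of each family differ by very few bases, which bears on how their reads can be told apart. All 8 rows were matched by name to RefSeq entries of the assembly GRCr8. The sequences run 5′ to 3′ and capitals mark the seed (bases 2 to 8).
rno-miR-101a-3p: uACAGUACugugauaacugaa
rno-miR-101b-3p: uACAGUACugugauagcugaa
rno-miR-26a-5p: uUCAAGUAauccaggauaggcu
rno-miR-26b-5p: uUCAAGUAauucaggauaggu

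Both miR-101 members carried the seed ACAGUAC and both miR-26 members the seed UCAAGUA, and the families shared no seed with each other. Counting from 1 at the 5′ end, rno-miR-101a-3p and rno-miR-101b-3p had the same first 15 bases and the single difference A16G. The miR-26 members had the same first 10 bases and differed by C11U and C21U, and rno-miR-26a-5p was 1 base longer, at 22 against 21. The authors kept reads of at least 15 bases and allowed 1 mismatch in the alignment, a limit set on the first part of a read, before base 21. A short read of a miR-101 member could match both exactly, and a full-length read could fit both within 1 mismatch. A miR-26 read, short or full-length, could also fit both miR-26 members within that limit, as only C11U lies in the part it covers. How such reads were divided could not be examined in the counts. Levels of the members of a family are therefore uncertain with respect to each other to that extent.

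The 4 members lie at separate loci. The rno-miR-101a-3p sequence is at chr5:121081691-121081711 on the minus strand (GRCr8), inside the non-coding gene LOC120102934. The rno-miR-101b-3p sequence (gene Mir101-2) is at chr1:236273982-236274002 on the plus strand, within Rcl1. The rno-miR-26a-5p sequence is at chr8:127633063-127633084 on the plus strand within Ctdspl, and rno-miR-26b-5p at chr9:83425723-83425743 on the plus strand within Ctdsp1. Ctdspl and Ctdsp1 encode related small phosphatases that act on the C-terminal domain of RNA polymerase II, and Rcl1 encodes a protein of ribosomal RNA processing.

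The libraries held between 1032386 and 3203211 reads on mature miRNAs, and rno-miR-34c-5p, a miRNA abundant in spermatogenic cells and sperm, was the largest row with a mean level of 391893 CPM (counts relative to library size, scaled to 1e6 reads and by the trimmed mean of M-values, TMM). The TMM factors, which correct for differences in composition, were lowest for F0_SAL (0.701 to 0.966), followed by F0_MOR (0.914 to 1.09), and were similar for F0_ABS-SAL (1.02 to 1.21) and F0_ABS-MOR (0.950 to 1.26). Library R of F0_ABS-SAL stood apart for a list of 6 endothelial and muscle miRNAs, with a summed level of 83277 CPM against 18332 to 31599 CPM in the other libraries of its group. Most of that list's level in F0_ABS-SAL was a single miRNA, rno-miR-143-3p, at 32677 ± 27321 CPM (SD, n = 5). The number of calls in the comparison of F0_ABS-SAL with F0_SAL fell from 105 to 65 without library R. All 12 miRNAs on the list of germ cell and sperm miRNAs were detected, and their summed level ran from 424039 to 770063 CPM in F0_SAL against 286602 to 412603 CPM in F0_ABS-SAL, and from 350729 to 529508 CPM in F0_MOR against 198662 to 452784 CPM in F0_ABS-MOR. These sums were mostly rno-miR-34c-5p and depend on the TMM factors. As a share of miRNA counts without those factors, rno-miR-34c-5p was 35.0% to 53.6% in F0_SAL and 26.1% to 41.1% in F0_ABS-SAL, which overlapped. The shares also overlapped in morphine males, at 30.9% to 43.4% in F0_MOR and 19.6% to 43.5% in F0_ABS-MOR. Libraries are named by the letter of their column. Fewer cells of a type and less RNA per cell cannot be told apart in these bulk libraries.

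The guide arms of both families were abundant in sperm. By mean CPM over the 25 libraries, rno-miR-26a-5p ranked 10th (17902 CPM), rno-miR-101b-3p ranked 18th (9719 CPM), rno-miR-101a-3p ranked 40th (2996 CPM) and rno-miR-26b-5p ranked 52nd (1717 CPM) of the 562 miRNAs. Together the 4 members held between 2.30% and 4.50% of the miRNA counts of a library, with a median of 3.32%. The order of the group means was the same in all 4 groups. At its low end, rno-miR-101a-3p and rno-miR-26b-5p lay within their spread in the nonabstinent males, with 1801 ± 382 and 1613 ± 283 CPM (SD, n = 7) in F0_SAL. In F0_ABS-SAL they did not overlap, at 4558 ± 1297 and 1849 ± 322 CPM (SD, n = 5).

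The passenger arms were close to absent. rno-miR-101a-5p was counted in 3 of the 25 libraries (10 reads in all, at most 4 in 1 library), rno-miR-101b-5p in 1 library (2 reads), rno-miR-26a-3p in 4 libraries (8 reads) and rno-miR-26b-3p in 5 libraries (16 reads, at most 7 in 1 library). The same hairpins gave 162076, 477640, 860219 and 83150 guide arm reads. The smallest count above 0 in the matrix was 2, so single reads were not listed. Nothing could be said about differences in the passenger arms at this depth, and no fold change is given for them.

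The first question was whether the members differed between collection timepoints in males that had taken only saline. One member, rno-miR-101a-3p, was higher after abstinence, and the other 3 did not pass the test. Among all 317 miRNAs tested, 105 were called in F0_ABS-SAL against F0_SAL (33.1%) and 71 were called higher (22.4%), so 1 call among 4 members lay near the background. The level of rno-miR-101a-3p was 2862 CPM in library E, 4286 in K, 5930 in L, 5782 in R and 3928 in Y of F0_ABS-SAL. In the 7 F0_SAL libraries it ran from 1349 to 2290 CPM, with a median of 1955 CPM. The groups did not overlap, and the lowest abstinent library, E, was above the highest nonabstinent library, H. Groups without overlap in this direction were found for 15 of the 317 miRNAs (4.73%).

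The fitted log2 fold change of rno-miR-101a-3p was 1.34 (standard error 0.29, 95% interval 0.74 to 1.94, a 2.53-fold difference), with an adjusted p of 0.00195 in edgeR's quasi-likelihood test. It ranked 11th of the 317 miRNAs by p and 28th by the size of its fold change. Without library R the log2 fold change was 1.20 (edgeR adjusted p = 0.0135).

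**Figure D1:**
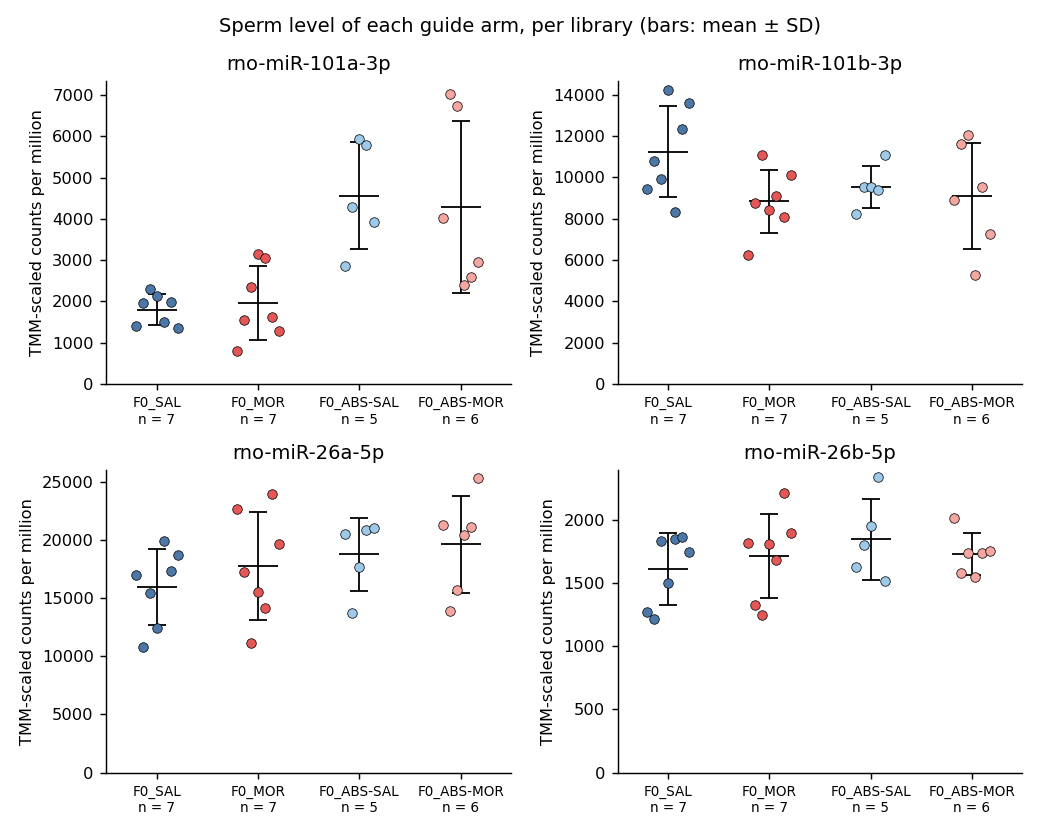
Level of each guide arm in each library, in TMM-scaled CPM on a linear axis from 0, by group. Points are libraries (n = 7, 7, 5 and 6), the short line is the group mean and the bar is 1 SD. For rno-miR-101a-3p all 5 F0_ABS-SAL libraries sit above all 7 F0_SAL libraries, while the groups overlap for rno-miR-101b-3p, rno-miR-26a-5p and rno-miR-26b-5p.

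The same comparison was made in males that had taken morphine. Again rno-miR-101a-3p was the 1 member called, against a background of 67 of 317 miRNAs called (21.1%) and 35 called higher (11.0%) in F0_ABS-MOR against F0_MOR. Its level ran from 2396 to 7029 CPM in the 6 F0_ABS-MOR libraries (median 3486 CPM) and from 791 to 3145 CPM in the 7 F0_MOR libraries (median 1619 CPM). Libraries D, I and J of F0_ABS-MOR, at 4026, 7029 and 6730 CPM, lay above every F0_MOR library. Libraries Q, S and X, at 2396, 2602 and 2946 CPM, lay below libraries M and N of F0_MOR, at 3145 and 3042 CPM. The groups therefore overlapped, unlike for 6 of the 317 miRNAs (1.89%) for which every F0_ABS-MOR library was above every F0_MOR library. The log2 fold change was 1.12 (standard error 0.28, 95% interval 0.55 to 1.70, a 2.18-fold difference), with an edgeR adjusted p of 0.00800, and it ranked 14th by p and 18th by size.

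These comparisons share no library, and the difference between them was itself tested. The interaction for rno-miR-101a-3p was 0.22 on the log2 scale (standard error 0.41, 95% interval -0.61 to 1.05, edgeR adjusted p = 0.953), so a difference in the timepoint effect between saline and morphine males was not shown. Of the 317 miRNAs tested, 0 were called for the interaction (0%) by edgeR, and 10 had an unadjusted p under 0.05. DESeq2, run on 562 miRNAs without the filter on low counts, also called 0 for the interaction.

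The second member of the family, rno-miR-101b-3p, did not pass either timepoint test. Its level ran from 8336 to 14223 CPM in F0_SAL and from 8208 to 11083 CPM in F0_ABS-SAL, where all 5 libraries lay below the F0_SAL mean and library E, at 8208 CPM, lay just under its range. The log2 fold change was -0.24 (standard error 0.19, 95% interval -0.61 to 0.14, edgeR adjusted p = 0.333). In the morphine males it ran from 6242 to 11108 CPM in F0_MOR and from 5274 to 12053 CPM in F0_ABS-MOR. The log2 fold change there was 0.04 (95% interval -0.31 to 0.40, edgeR adjusted p = 0.871).

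**Figure D2:**
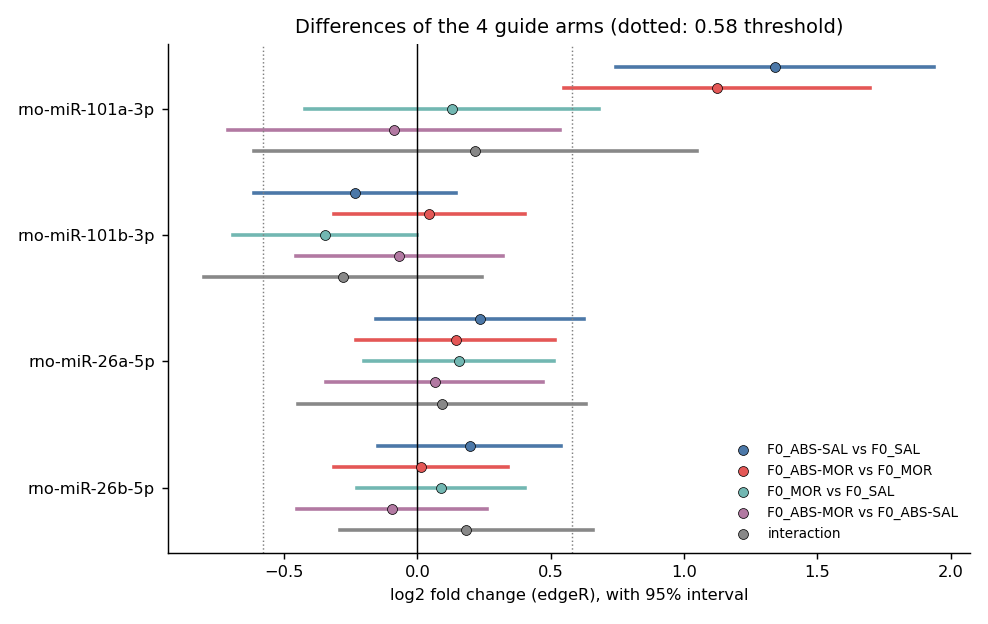
Log2 fold changes of the 4 guide arms from edgeR in 4 comparisons and for the interaction, which is the timepoint difference in saline males minus that in morphine males. Points are estimates, lines are 95% intervals and dotted lines mark the threshold of 0.58 in either direction. The timepoint estimates for rno-miR-101a-3p, 1.34 and 1.12, are the only ones beyond the threshold.

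The balance within the miR-101 family was then compared as the ratio of rno-miR-101a-3p to rno-miR-101b-3p reads in the same library, which does not depend on how libraries are scaled. In F0_SAL the ratio ran from 0.0992 to 0.231, so rno-miR-101b-3p was the main member in every library. In F0_ABS-SAL it was 0.349 in library E, 0.448 in K, 0.623 in L, 0.616 in R and 0.354 in Y, all above the F0_SAL libraries. The difference in mean log2 ratio was 1.54 (standard error 0.23, two-sided exact permutation p = 0.00253, the smallest these group sizes allow, adjusted p = 0.0303 over 12 ratio tests).

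In F0_MOR the ratio ran from 0.127 to 0.374 (median 0.200) and in F0_ABS-MOR from 0.272 to 0.606 (median 0.453). Libraries M and N had the highest ratios of F0_MOR, 0.374 and 0.335, and library S, with the lowest of F0_ABS-MOR, 0.272, lay below both. The difference in mean log2 ratio was 1.12 (standard error 0.29, exact permutation p = 0.00699, adjusted p = 0.0420). With 1 library left out the difference stayed between 1.00 and 1.26, but the adjusted exact permutation p rose above 0.05, to between 0.0758 and 0.0909, without any one of A, B, G, T or U of F0_MOR or D, I, J, Q or X of F0_ABS-MOR.

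The total of the family, of which rno-miR-101b-3p was the larger part, moved less than rno-miR-101a-3p alone. When the counts of rno-miR-101a-3p and rno-miR-101b-3p were summed into 1 row before the fit, the log2 fold change was 0.06 for F0_ABS-SAL against F0_SAL and 0.33 for F0_ABS-MOR against F0_MOR. The rows differ by the 1 base at position 16, and the sum does not depend on how reads were divided between them.

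**Figure D3:**
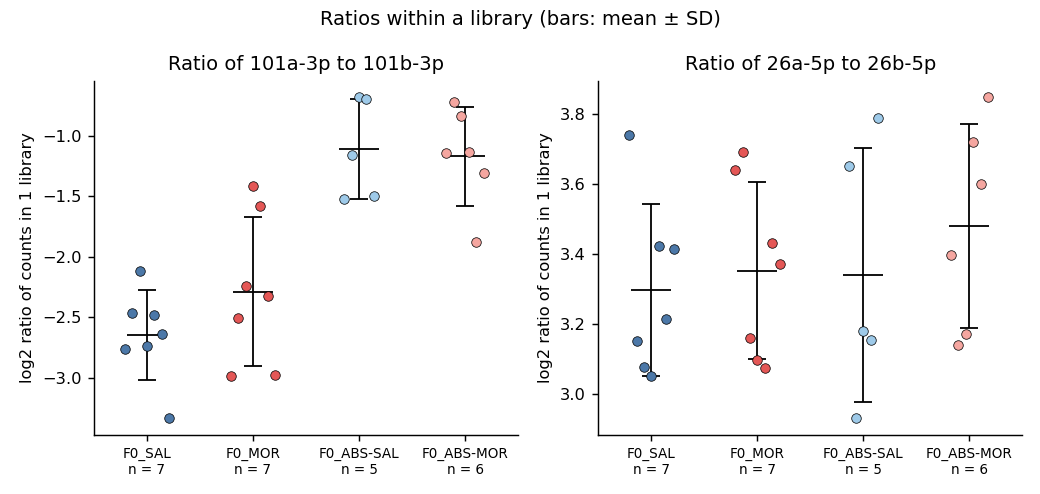
Log2 ratio of the read counts of the 2 members of each family within each library (counts plus 0.5), by group. Points are libraries, the short line is the mean and the bar is 1 SD. The ratio of rno-miR-101a-3p to rno-miR-101b-3p is higher in both abstinent groups, with means of -1.11 and -1.17 against -2.65 and -2.29, while the 4 groups overlap for rno-miR-26a-5p to rno-miR-26b-5p.

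The miR-26 family did not pass the test between timepoints. rno-miR-26a-5p ran from 10793 to 19906 CPM in F0_SAL (median 16971 CPM) and was 20467 CPM in library E, 13718 in K, 17710 in L, 20890 in R and 21051 in Y of F0_ABS-SAL. Although 3 of these libraries were above all of F0_SAL, library K was below 5 of the 7 F0_SAL libraries. The log2 fold change was 0.24 (standard error 0.19, 95% interval -0.15 to 0.63, edgeR adjusted p = 0.344). With libraries scaled by total count alone it was 0.60 and was called (edgeR adjusted p = 0.0235), a scaling under which the median of all 317 miRNAs was itself 0.39. In the morphine males rno-miR-26a-5p ran from 11161 to 23927 CPM in F0_MOR and from 13914 to 25308 CPM in F0_ABS-MOR, with a log2 fold change of 0.14 (95% interval -0.23 to 0.51, edgeR adjusted p = 0.620).

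rno-miR-26b-5p had the narrowest range of the 4 members. It ran from 1214 to 1868 CPM in F0_SAL against 1522 to 2344 CPM in F0_ABS-SAL, and from 1248 to 2215 CPM in F0_MOR against 1548 to 2021 CPM in F0_ABS-MOR, and all groups overlapped. Its log2 fold changes between timepoints were 0.20 in saline males (95% interval -0.15 to 0.54, edgeR adjusted p = 0.364) and 0.01 in morphine males (95% interval -0.31 to 0.34, edgeR adjusted p = 0.967). Over the alternatives that keep all libraries, the estimate in saline males ran from 0.14 to 0.57, its upper end just under the threshold of 0.58.

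The ratio of rno-miR-26a-5p to rno-miR-26b-5p ran from 7.62 to 14.4 over all libraries. Its mean log2 value was 3.30 ± 0.25 for F0_SAL and 3.35 ± 0.25 for F0_MOR (SD, n = 7 each), 3.34 ± 0.36 for F0_ABS-SAL (SD, n = 5) and 3.48 ± 0.29 for F0_ABS-MOR (SD, n = 6). The 4 group differences lay between 0.05 and 0.14 on the log2 scale, with an adjusted exact permutation p of 0.818 for each. The summed miR-26 reads were 0.832 to 3.48 times the summed miR-101 reads over the 25 libraries, with medians of 1.37 (F0_SAL), 1.504 (F0_ABS-SAL), 1.79 (F0_MOR) and 1.84 (F0_ABS-MOR).

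Morphine was compared with saline at each timepoint. No member was called, as was the case for all 317 miRNAs in F0_MOR against F0_SAL (0 called, 0%) and in F0_ABS-MOR against F0_ABS-SAL (0 called, 0%) with edgeR. DESeq2, run on 562 miRNAs without the filter on low counts, also called 0 in each of these comparisons. An unadjusted edgeR p under 0.05 was found for 23 and 4 miRNAs. One of the 23 was rno-miR-101b-3p. Its level was 11241 ± 2211 CPM in F0_SAL and 8838 ± 1547 CPM in F0_MOR (SD, n = 7 each), and all 7 F0_MOR libraries were below the F0_SAL mean, although the ranges overlapped. The log2 fold change was -0.35 (standard error 0.17, 95% interval -0.69 to -0.0029, edgeR adjusted p = 0.623). Over the alternatives that keep all libraries it ran from -0.55 to -0.14, and it was called under none of them. The study itself, with DESeq2 and the same thresholds, did report 1 miRNA, rno-miR-150-5p, as different between F0_MOR and F0_SAL. It added that qPCR appeared to replicate this. Here rno-miR-150-5p had a log2 fold change of 0.92 (edgeR adjusted p = 0.311) and was not called, and the reason for the disagreement was not tested.

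For rno-miR-101a-3p the difference between F0_MOR and F0_SAL was 0.13 (95% interval -0.42 to 0.68, edgeR adjusted p = 0.902). Its libraries were more spread in F0_MOR, where 3 were above every F0_SAL library and the lowest, library A, had 791 CPM. The estimate turned to -0.11 when the TMM factors were taken from the miRNA and other non-coding RNA matrices joined. The miR-26 members differed by 0.16 (rno-miR-26a-5p, 95% interval -0.20 to 0.51) and 0.09 (rno-miR-26b-5p, 95% interval -0.23 to 0.40).

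After abstinence, the differences between F0_ABS-MOR and F0_ABS-SAL were -0.09 for rno-miR-101a-3p (95% interval -0.71 to 0.53), -0.07 for rno-miR-101b-3p (-0.46 to 0.32), 0.06 for rno-miR-26a-5p (-0.34 to 0.47) and -0.10 for rno-miR-26b-5p (-0.45 to 0.26). The edgeR adjusted p was 1.00 for each. The interval for rno-miR-101a-3p was the widest and reached beyond 0.58 on the lower side. The ratio of rno-miR-101a-3p to rno-miR-101b-3p differed by 0.36 between F0_MOR and F0_SAL (adjusted exact permutation p = 0.647) and by -0.06 between F0_ABS-MOR and F0_ABS-SAL (adjusted exact permutation p = 0.818).

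**Figure D4:**
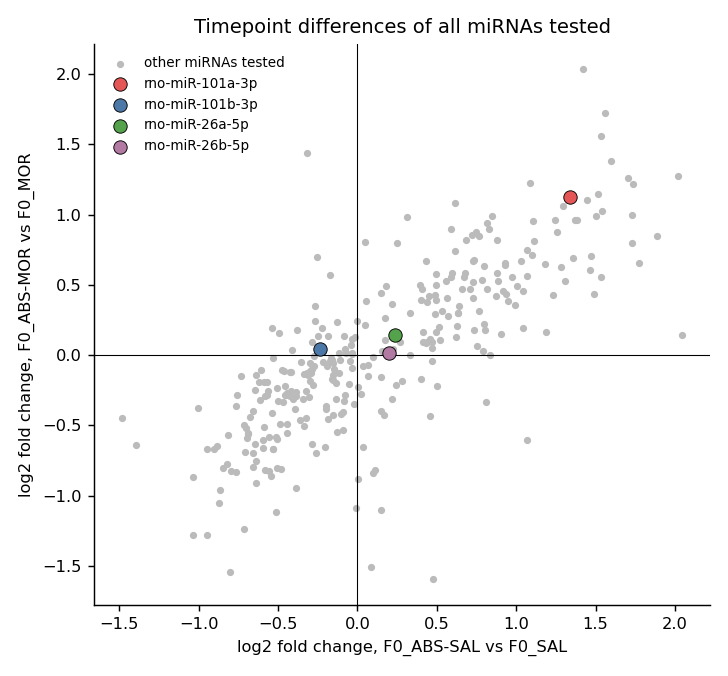
Log2 fold changes of all 317 miRNAs tested between timepoints, in saline males (x axis) and morphine males (y axis), from edgeR. Grey points are other miRNAs and large points are the 4 guide arms. rno-miR-101a-3p lies at 1.34 and 1.12, while rno-miR-101b-3p, rno-miR-26a-5p and rno-miR-26b-5p lie within 0.25 of 0 on both axes.

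How closely other miRNAs followed each member was described by the standard deviation, over the 25 libraries, of the log2 ratio between them, where a small value means that the pair kept its proportion. Libraries share groups and depth, so no test is attached. The members of the miR-26 family followed each other more closely (0.275) than the miR-101 members did (0.813). The value was 0.929 between rno-miR-101a-3p and rno-miR-26a-5p and 0.800 between rno-miR-101a-3p and rno-miR-26b-5p, and rno-miR-101b-3p was nearer to both (0.575 and 0.435).

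The 3 miRNAs closest to rno-miR-101a-3p were rno-miR-195-5p (0.421), a member of the miR-15/16 family, rno-miR-148a-5p (0.421) and rno-miR-30a-5p (0.507), against a median of 1.00 over 313 miRNAs. rno-miR-195-5p was called higher in both timepoint comparisons, with log2 fold changes of 1.07 (edgeR adjusted p = 0.00270) and 0.75 (edgeR adjusted p = 0.0272). The second call was lost with total count as a covariate, where the log2 fold change was 0.56. rno-miR-148a-5p was not called, at 0.56 in saline males (edgeR adjusted p = 0.149) and 0.52 in morphine males (edgeR adjusted p = 0.196). Nor was rno-miR-30a-5p, at 0.41 in saline males (edgeR adjusted p = 0.164) and 0.47 in morphine males (edgeR adjusted p = 0.133). rno-miR-101b-3p was closest to rno-miR-340-5p (0.232), rno-miR-34c-5p (0.280) and rno-miR-21-5p (0.288), with a median of 0.689. rno-let-7f-5p was the closest to both miR-26 members (0.259 for each), followed by rno-miR-1839-5p (0.261) and rno-miR-218a-5p (0.306) for rno-miR-26a-5p and by rno-miR-186-5p (0.285) and rno-miR-21-5p (0.294) for rno-miR-26b-5p.

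Other miRNAs reported to target Ezh2 were taken as a list of 16, of which 15 were in the matrix and 14 were tested. Of the 14, 2 rose, 2 fell and 10 were not called in F0_ABS-SAL against F0_SAL, where 22.4% of all miRNAs tested were called higher and 10.7% lower, with a median log2 fold change of -0.07 against 0.00 over all miRNAs tested. In F0_ABS-MOR against F0_MOR, 0 rose, 4 fell and 10 were not called, where 11.0% of all miRNAs were called higher and 10.1% lower, with a median of -0.12 against 0.00. These counts moved with the scaling of the libraries. Scaled by total count alone, 4 rose and 0 fell in saline males and 0 rose and 0 fell in morphine males, with list medians of 0.29 against 0.39 over all miRNAs and 0.09 against 0.18. With TMM factors from the joined matrices, 1 rose and 1 fell in morphine males. No miRNA of the list was called between treatments or for the interaction.

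The list members called in both timepoint comparisons were rno-let-7a-5p, of the let-7 family that is widespread in differentiated cells, and rno-miR-25-3p, encoded within an intron of Mcm7. rno-let-7a-5p fell, with log2 fold changes of -0.85 (standard error 0.25, edgeR adjusted p = 0.0128) in saline males and -0.80 (standard error 0.23, edgeR adjusted p = 0.0197) in morphine males. rno-miR-25-3p fell as well, with -0.71 (edgeR adjusted p = 0.0489) and -0.69 (edgeR adjusted p = 0.0612), opposite in direction to rno-miR-101a-3p. By total count alone neither was called, with -0.50 and -0.60 for rno-let-7a-5p and -0.35 and -0.52 for rno-miR-25-3p. In morphine males, rno-let-7a-5p also lost its call with total count as a covariate (-0.57) and rno-miR-25-3p with TMM factors from the joined matrices (-0.59). With library sizes taken without rno-miR-34c-5p, rno-miR-25-3p was not called in saline males (-0.56) or morphine males (-0.61). The call of rno-miR-25-3p was also lost without library F of F0_SAL (-0.56) or R of F0_ABS-SAL (-0.65) in saline males, and without library G of F0_MOR (-0.43) or D (-0.61) or Q (-0.62) of F0_ABS-MOR in morphine males. Those called in 1 comparison, named after their values were seen, were rno-let-7e-5p (0.80, edgeR adjusted p = 0.0100) and the scarce rno-miR-214-3p (1.30, edgeR adjusted p = 0.0710, mean 8.55 CPM, a call lost without any one of libraries F, O or W of F0_SAL or K, L or R of F0_ABS-SAL, with 0.98 to 1.34), both higher in saline males, and rno-miR-98-5p (-0.70, edgeR adjusted p = 0.0272) and rno-miR-144-3p, both lower in morphine males. The call of rno-miR-98-5p in morphine males was not kept under every alternative with all libraries, where its log2 fold change was as small as -0.49. The let-7 members differ from each other by few bases, so that reads could be split between their rows. The most abundant of the list, rno-let-7f-5p (21188 CPM) and rno-let-7i-5p (12475 CPM), had log2 fold changes of 0.03 and 0.15 in saline males and of -0.08 and -0.16 in morphine males, none of them called.

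One more member of that list, rno-miR-144-3p, a miRNA of red blood cell precursors, has a sequence near the miR-101 seed. It is printed for that reason, with its seed in capitals as above.
rno-miR-144-3p: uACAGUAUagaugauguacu

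Against rno-miR-101a-3p its seed has the substitution C8U, and the first 7 bases are shared. Its mean level was 106 CPM. It was called lower in F0_ABS-MOR against F0_MOR (log2 fold change -0.65, edgeR adjusted p = 0.0927), a call that was lost under most other scalings and without any one of libraries G, N or U of F0_MOR or I, J or Q of F0_ABS-MOR (-0.50 to -0.67), and had a log2 fold change of -0.21 in F0_ABS-SAL against F0_SAL (edgeR adjusted p = 0.588).

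**Figure D5:**
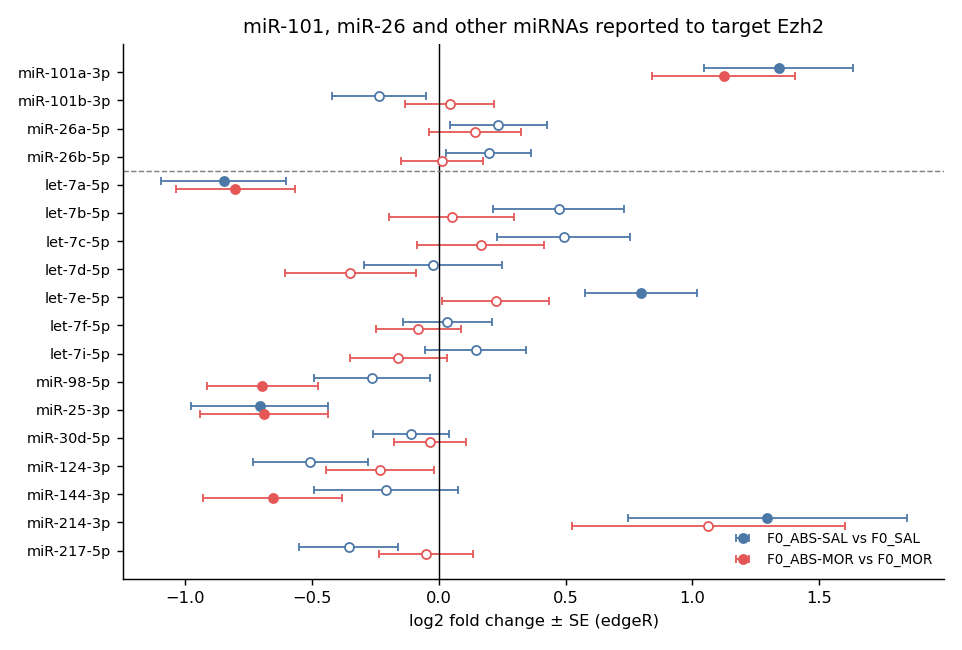
Log2 fold changes between timepoints, with standard errors, for the 4 guide arms (above the dashed line) and the 14 tested miRNAs of the list reported to target Ezh2. Blue is saline males and red is morphine males, filled points were called and open points were not. rno-miR-101a-3p is called higher in both, while rno-let-7a-5p and rno-miR-25-3p are called lower in both, calls that are lost under other scalings, total count alone among them.

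Lists of miRNAs that mark cell types were counted in the same way, and their part in the level of rno-miR-101a-3p was not tested. The shares over all miRNAs to read them against were 22.4% higher and 10.7% lower in saline males, and 11.0% higher and 10.1% lower in morphine males. Of 6 endothelial and muscle miRNAs, 5 were higher in F0_ABS-SAL and 3 in F0_ABS-MOR than in the matching nonabstinent group, and 0 were lower. Their summed level ran from 14386 to 17261 CPM in F0_SAL against 18332 to 83277 CPM in F0_ABS-SAL, and from 13611 to 18221 CPM in F0_MOR against 16658 to 37529 CPM in F0_ABS-MOR. Of 6 miRNAs of the epididymal epithelium, 4 and 2 were higher and 0 were lower, with sums of 6417 to 10608 CPM in F0_SAL against 8538 to 18843 CPM in F0_ABS-SAL, and 7374 to 11127 CPM in F0_MOR against 8601 to 17043 CPM in F0_ABS-MOR.

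Of the 11 germ cell and sperm miRNAs tested, 5 were lower in F0_ABS-SAL, among them rno-miR-34c-5p (log2 fold change -0.77, edgeR adjusted p = 0.00943), and 1 in F0_ABS-MOR, and 0 were higher. By total count alone 0 of the 11 were lower in F0_ABS-SAL, and rno-miR-34c-5p had a log2 fold change of -0.36, against a shift of 0.39 in the median of all miRNAs. Leukocyte miRNAs were mostly not called, with 1 of 6 higher in F0_ABS-SAL, and 1 higher and 1 lower in F0_ABS-MOR. Their sums ran from 1153 to 2250 CPM in F0_SAL and from 1939 to 2698 CPM in F0_ABS-SAL, and from 1601 to 2502 CPM in F0_MOR and from 2001 to 3056 CPM in F0_ABS-MOR. Of 3 erythroid miRNAs, 0 were called in F0_ABS-SAL and 3 were lower in F0_ABS-MOR, with sums of 929 to 2741 CPM in F0_SAL against 655 to 1256 CPM in F0_ABS-SAL, and 948 to 2372 CPM in F0_MOR against 308 to 1292 CPM in F0_ABS-MOR. Among them, rno-miR-144-3p and rno-miR-144-5p are arms of the same hairpin, and the call of rno-miR-144-3p was lost under most other scalings. No miRNA of these lists that was in the matrix was at 0 in every library. Within F0_ABS-SAL, the libraries with the highest rno-miR-101a-3p, L and R, also had the highest endothelial and muscle sums, 31599 and 83277 CPM. Library E, the lowest for rno-miR-101a-3p, had the lowest such sum, 18332 CPM. The other lists were not ordered in this way there. Epididymal epithelium sums were 8538 CPM in L, 18843 in R and 11795 in E. Germ cell sums were 342475 CPM in L, 286602 in R and 297212 in E. Within F0_ABS-MOR, the libraries with the highest rno-miR-101a-3p, I and J, had endothelial and muscle sums of 30376 and 22861 CPM and germ cell sums of 443832 and 452784 CPM. Library Q, the lowest for rno-miR-101a-3p, had 37529 and 198662 CPM. Epididymal epithelium sums in these libraries were 12213 CPM in I, 9186 in J and 12820 in Q. Whether any of these sums went with rno-miR-101a-3p over the libraries was not tested.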

How the data were processed

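Sperm small RNA of 25 F0 males was sequenced, 1 library per male. The authors prepared NEBNext libraries, annotated forward reads with sRNAbench, aligned to rn6 and then assigned to miRBase, and deposited raw read counts per mature miRNA. The matrix columns carry a letter and REG or TO, which were matched to nonabstinent and abstinent males by group size (7, 7, 5 and 6). Columns of other samples numbered 0.

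Counts were tested with edgeR 4.0.16 in R 4.3.3 (TMM, filter on low counts over the 4 groups, 1 model of 4 groups, quasi-likelihood test, Benjamini-Hochberg over all 317 miRNAs). A miRNA was called where its log2 fold change exceeded 0.58 in either direction with an adjusted p below 0.1, as in the study. The standard error is the fold change divided by the square root of F, an approximation. Levels are TMM-scaled CPM, and as guide arms are 20 to 22 bases long they were not corrected for length. Ratios used counts plus 0.5 and two-sided exact permutation tests, with 0.05 as threshold and adjustment over 12 tests, which share libraries. Ratios between the arms of a hairpin were planned but not run, since the passenger arms were at 0 in most libraries.

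Named miRNAs were all members, the 3 nearest to each by the SD of the log2 ratio, and, of the list reported to target Ezh2, those called in both timepoint comparisons, or the 3 of highest mean level where fewer than 3 were. rno-miR-144-3p was added for its sequence after its values were seen. The members, lists and tests were chosen with earlier results of these data known. Alternatives were DESeq2 1.42.0, limma 3.58.1 (voom), other scalings and filters, and each library left out in turn. Depth was 1032386 to 3203211 miRNA reads per library, and PCR duplicates were not separated. The fit and the permutation test were tested on simulated data.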

Additional observations from a re-analysis of the deposited data

How the results depend on the processing

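rno-miR-101a-3p kept its direction and its call in both timepoint comparisons under each of the alternatives that keep the rows apart, with log2 fold changes of 1.24 to 1.71 in saline males and 0.95 to 1.34 in morphine males, and with each library left out (1.17 to 1.39 and 0.94 to 1.29). Summed with rno-miR-101b-3p, the row was not called (0.057 and 0.33), and the cause was not tested. That alternative, and library sizes without rno-miR-34c-5p, were chosen after seeing the data. Calls over all miRNAs were 1 for F0_MOR against F0_SAL with limma-voom and 0 to 1 with a library left out, 43 for F0_ABS-MOR against F0_MOR at an adjusted p under 0.05, and 65 to 126 for F0_ABS-SAL against F0_SAL with a library left out. Scaling by total count changed the split of higher and lower calls from 71 and 34 to 110 and 1 in saline males and from 35 and 32 to 57 and 14 in morphine males, where TMM factors from the joined matrices gave 56 and 18. It also moved the median of all miRNAs by 0.39 in saline males, 0.18 in morphine males and 0.25 for F0_MOR against F0_SAL, and gave 0.60 for rno-miR-26a-5p (called) and 0.16 for rno-miR-101b-3p in saline males. The estimates that changed sign were all uncalled. The joined factors gave -0.11 for rno-miR-101a-3p and -0.048 for rno-miR-26b-5p in F0_MOR against F0_SAL and -0.0055 for the interaction of rno-miR-101a-3p. A covariate of total count gave -0.18 for rno-miR-101b-3p in F0_ABS-MOR against F0_MOR, and limma-voom gave 0.022 for rno-miR-26b-5p in F0_ABS-MOR against F0_ABS-SAL, where the summed miR-26 row gave 0.018. The summed miR-101 row gave -0.36 for F0_MOR against F0_SAL and -0.27 for the interaction. Of the other miRNAs, 0.14 was found for rno-miR-144-3p and 0.090 for rno-miR-98-5p in saline males, and 0.13 for rno-let-7f-5p and 0.051 for rno-let-7i-5p in morphine males, with total count scaling. In morphine males rno-let-7f-5p had 0.019 with the joined factors, 0.0051 without rno-miR-34c-5p and 0.044 with the covariate, under which rno-let-7i-5p had 0.050. limma-voom gave -0.065 for rno-let-7f-5p in saline males, and leaving a library out gave -0.11 to 0.11 for it and -0.011 to 0.24 for rno-let-7i-5p. The cause of these shifts was not tested. With a library left out, F0_ABS-MOR against F0_ABS-SAL ran from -0.28 to 0.061 for rno-miR-101a-3p, -0.18 to 0.069 for rno-miR-101b-3p and -0.030 to 0.15 for rno-miR-26a-5p. F0_MOR against F0_SAL ran from -0.083 to 0.18 for rno-miR-101a-3p and -0.041 to 0.096 for rno-miR-26b-5p. F0_ABS-MOR against F0_MOR ran from -0.073 to 0.18 for rno-miR-101b-3p and -0.054 to 0.071 for rno-miR-26b-5p, and the interaction of rno-miR-26a-5p from -0.037 to 0.19. Likewise the log2 ratio of rno-miR-101a-3p to rno-miR-101b-3p differed by -0.16 to 0.080 between the abstinent groups and by 1.00 to 1.26 between the morphine groups, that of rno-miR-26a-5p to rno-miR-26b-5p by -0.067 to 0.15 between the saline groups, and that of the summed families by -0.28 to 0.080 between the morphine groups. No paired analysis was possible because each library came from a different male, and the matrix columns carry letters and no replicate numbers.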
